A study of Mus musculus with 6 samples.

Results

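Ccn1, Ccn2, Ankrd1, Amotl2, Axl, Ajuba, Lats2, Crim1 and F3 are known target genes of the transcriptional coactivator YAP and its TEAD partners, and their RNA levels were read in mouse mammary cells that had become resistant to an EGFR inhibitor. The 9 genes were taken by name from what is known of the pathway, with earlier results of these arrays in view, and each was read from the brightest probe set that carries its symbol alone. Each of them had 1 such probe set, so that 9 of the 19938 genes measured were examined. NME cells are NMuMG cells, a line from normal mouse mammary gland, that were transformed by stable viral overexpression of EGFR. AGR cells derive from NME cells and therefore carry the same EGFR transgene. They were grown from a large colony picked out of 3D culture on cultrex with 1 µM AG1478, an inhibitor of the EGFR kinase, and then expanded in 2D culture, and resistant lines were kept without drug. The RNA of each line was read on 3 arrays of the type Affymetrix Mouse Gene 1.0 ST, so that 6 were compared. The resistant line is 1 colony, and no source used here says that arrays of a line came from separate cultures, so the p-values rest on array-to-array spread alone, which may be technical. Values are log2 of the array intensity, and differences are log2 fold changes (FC) of AGR over NME cells, tested with limma (a linear model with moderated variances) and adjusted over all 19938 genes. An adjusted p under 0.05 was the threshold.

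The Hippo pathway is a kinase cascade in which MST kinases activate LATS kinases, and LATS kinases phosphorylate YAP and its relative TAZ, encoded by Wwtr1, and so keep them out of the nucleus. Without this phosphorylation YAP and TAZ bind TEAD factors on DNA and raise transcription of genes for matrix signals, cytoskeletal proteins and regulators of the pathway itself. In mammary epithelium the pathway responds to cell density, stiffness of the matrix and cell shape.

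TEAD factors recognise the letters GGAATG, which read CATTCC on the other strand. RefSeq promoter windows of build GRCm38.p6, which run from 250 bases before to 50 bases after a gene start, were at hand for 8 of the 9 genes, and were searched on both strands for these letters. The motif was in a window of 7 of the 8 genes, Ccn1, Amotl2, Lats2, Crim1, Ankrd1, Axl and Ajuba, and not in that of F3. Of all measured genes with a promoter window, 15.1% held it. The genes were known as TEAD targets when they were chosen, so the share is a description. The 9 matches are shown with 12 bases on either side, 5′ to 3′ in the direction of the gene, with the motif in capitals.
Ccn1, chr3:145650071-145650100, minus strand: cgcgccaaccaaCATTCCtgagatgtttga
Amotl2, chr9:102717727-102717756, plus strand: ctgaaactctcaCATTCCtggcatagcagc
Lats2, chr14:57746102-57746131, minus strand: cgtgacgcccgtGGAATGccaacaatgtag
Crim1, chr17:78200157-78200186, plus strand: agggcgggggggGGAATGaggtaggatggg
Ankrd1, chr19:36120037-36120066, minus strand: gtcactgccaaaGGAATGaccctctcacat
Ankrd1, chr19:36119950-36119979, minus strand: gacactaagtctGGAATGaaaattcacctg
Axl, chr7:25788949-25788978, minus strand: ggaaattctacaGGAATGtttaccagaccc
Ajuba, chr14:54577830-54577859, minus strand: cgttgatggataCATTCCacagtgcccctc
Ajuba, chr14:54577808-54577837, minus strand: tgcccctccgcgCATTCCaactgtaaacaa

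The strand named is that of the gene. The motif lay on the gene's own strand in 5 of the 9 matches and on the other strand in 4. Counted from the gene start, the match in Ccn1 covered positions -103 to -98, that in Amotl2 -65 to -60 and that in Crim1 -79 to -74. Ankrd1 and Ajuba each held 2 matches. Those of Ankrd1 were at -210 to -205 and -123 to -118, and those of Ajuba at -186 to -181 and -164 to -159, so that the bases printed around the Ajuba matches overlap while the motifs do not. The match in Axl was the farthest from the start, at -233 to -228, and that in Lats2 was the only one behind it, at 5 to 10. In a second Lats2 window no match was present. For Axl, Amotl2, Lats2 and Crim1 the annotated gene begins upstream of the start used for the window, so these positions refer to 1 of their starts.

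**Figure D1:**
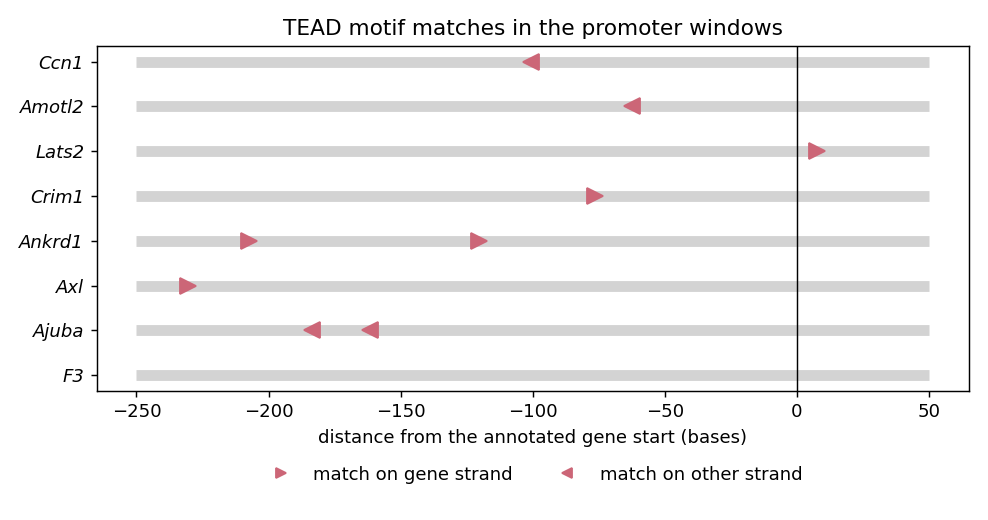
Positions of the TEAD motif (triangles, pointing right on the gene strand and left on the other strand) in the promoter windows of 8 target genes. The x axis is the distance in bases from the start used for each window, which the axis label calls the annotated gene start. For Axl, Amotl2, Lats2 and Crim1 the annotated gene begins upstream of that start. Ankrd1 and Ajuba held 2 matches each, F3 held none, and the match of Lats2 was the only one after the start used.

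The 250 bases before the start are given for Ccn1, the gene with the largest change, and for Ankrd1, whose 2 matches were both upstream, with each motif in capitals.
Ccn1, chr3:145649986-145650235, minus strand: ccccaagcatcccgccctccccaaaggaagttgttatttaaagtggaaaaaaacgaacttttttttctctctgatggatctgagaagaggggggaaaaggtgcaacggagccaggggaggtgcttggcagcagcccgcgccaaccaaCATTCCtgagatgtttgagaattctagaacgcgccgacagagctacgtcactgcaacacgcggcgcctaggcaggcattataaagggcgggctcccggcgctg
Ankrd1, chr19:36119845-36120094, minus strand: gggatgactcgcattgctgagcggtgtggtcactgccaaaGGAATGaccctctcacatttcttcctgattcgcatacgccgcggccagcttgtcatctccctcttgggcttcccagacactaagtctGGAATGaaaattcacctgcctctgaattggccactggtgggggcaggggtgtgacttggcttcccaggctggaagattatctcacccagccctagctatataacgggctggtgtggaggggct

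Of the 9 target genes, 7 were higher in AGR cells, 0 were lower and 2 did not pass the test. Among all genes 12.6% were called higher and 11.6% lower, and since the 9 were chosen with earlier results known, this is a description. The increases ran from 1.31-fold for Axl to 2.93-fold for Ccn1, and Ccn1 was the only one with a FC above 2, which 1.5% of all genes reached upward at the same adjusted p. The median log2 FC of the 9 genes was 0.65 against -0.02 over all genes. For 8 of the 9 every AGR array lay above every NME array, F3 being the exception, while 17.9% of all genes showed this separation. The RNA came from whole cultures, in which a change in the share of cells that express a gene and a change in its RNA per cell cannot be told apart. In both lines all 9 genes exceeded 7.61, the log2 intensity at the middle of the array's probe sets, which is called the array median from here on.

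**Figure D2:**
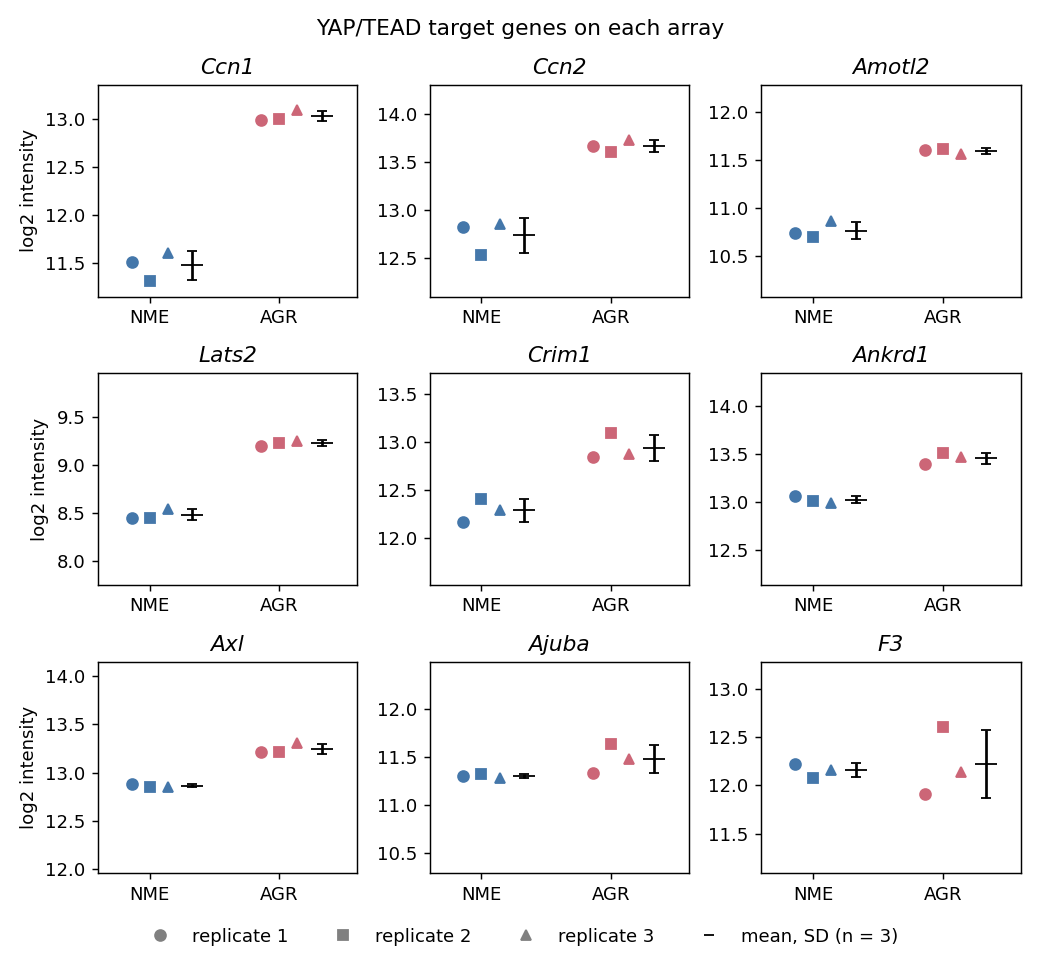
Log2 intensity (y axis, each panel spanning the same width of log2 units) of the 9 target genes on the 3 NME arrays (blue) and the 3 AGR arrays (red), with symbols for the replicate numbers and the mean with SD (n = 3) in black. The cell lines are apart for Ccn1 to Axl, nearly touch for Ajuba and overlap for F3, where AGR replicate 2 stood at 12.61.

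Ccn1 and Ccn2, formerly Cyr61 and Ctgf, encode secreted matricellular proteins that bind integrins and are the most widely used readouts of YAP activity. Ccn1 had a log2 intensity of 11.50, 11.31 and 11.61 on the NME arrays and of 12.99, 13.00 and 13.09 on the AGR arrays. The lowest AGR array was 1.38 above the highest NME array, several times the range of 0.29 within the NME arrays. The log2 FC was 1.55 (SE 0.08, 95% confidence interval 1.36 to 1.74, adjusted p = 3.5e-05), and 0.562% of all genes had a larger increase. Ccn2 stood at 12.82, 12.53 and 12.85 in NME cells and at 13.66, 13.60 and 13.72 in AGR cells. Its groups were likewise apart, by 0.75. The rise was 1.91-fold, a log2 FC of 0.93 (SE 0.09, 95% confidence interval 0.71 to 1.15, adjusted p = 5.7e-04), so that its interval held the 2-fold mark. For both genes NME replicate 2 was the lowest array, and the spread within NME cells (SD 0.15 and 0.18, n = 3) was wider than within AGR cells (SD 0.06 for either, n = 3).

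Amotl2, Lats2 and Ajuba act back on the Hippo pathway. Amotl2 encodes an angiomotin that binds YAP at junctions and holds it in the cytoplasm. Its log2 intensity was 10.74, 10.70 and 10.86 in NME cells and 11.61, 11.62 and 11.56 in AGR cells. The groups were separated by 0.70, and the log2 FC was 0.83 (SE 0.06, adjusted p = 1.1e-04). Lats2 encodes a kinase that phosphorylates YAP and TAZ. It read 8.45, 8.45 and 8.54 in NME cells and 9.19, 9.22 and 9.25 in AGR cells. The groups were apart by 0.65, and the log2 FC came to 0.74 (SE 0.05, adjusted p = 8.3e-05). Ajuba encodes a LIM-domain scaffold protein that binds LATS kinases and restrains them. It stood at 11.30, 11.32 and 11.29 in NME cells and at 11.34, 11.63 and 11.48 in AGR cells. AGR replicate 1 exceeded the highest NME array by only 0.01, and the log2 FC of 0.18 (SE 0.08, 95% confidence interval -0.00 to 0.36) did not pass the test (adjusted p = 0.159). Without AGR replicate 1 the log2 FC of Ajuba was 0.25 and passed (adjusted p = 0.041).

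Axl, Crim1 and F3 encode proteins of the cell surface. Axl is a receptor tyrosine kinase of the TAM family that is known from resistance to EGFR inhibitors. It read 12.88, 12.85 and 12.85 in NME cells and 13.22, 13.22 and 13.31 in AGR cells. The separation of 0.34 exceeded the range within either line, and the log2 FC was 0.39 (SE 0.04, adjusted p = 0.0011). Crim1, a transmembrane protein with cysteine-rich repeats that binds BMPs, stood at 12.16, 12.40 and 12.29 in NME cells and at 12.84, 13.09 and 12.87 in AGR cells. Here the arrays of a line were spread more widely (SD 0.12 and 0.13, n = 3) but did not overlap, and the log2 FC was 0.65 (SE 0.09, adjusted p = 0.0023). F3 encodes tissue factor, the receptor of coagulation factor VII. It read 12.22, 12.08 and 12.17 in NME cells and 11.91, 12.61 and 12.14 in AGR cells, so that the AGR arrays enclosed the NME arrays. The log2 FC of F3 was 0.06 with a 95% confidence interval of -0.33 to 0.46 (adjusted p = 0.845), which leaves room for a change of up to about that size in either direction. Without AGR replicate 2 it was -0.13 (adjusted p = 0.351).

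Ankrd1 encodes an ankyrin repeat protein that is found in the nucleus and, in muscle, in the sarcomere. Its log2 intensity was 13.06, 13.01 and 13.00 in NME cells and 13.39, 13.51 and 13.47 in AGR cells. All AGR arrays were higher, by at least 0.33, and the log2 FC was 0.43 (SE 0.05, 95% confidence interval 0.32 to 0.55, adjusted p = 9.7e-04). Ankrd1 was among the brightest probe sets in either line, with 98.6% of probe sets below it.

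**Figure D3:**
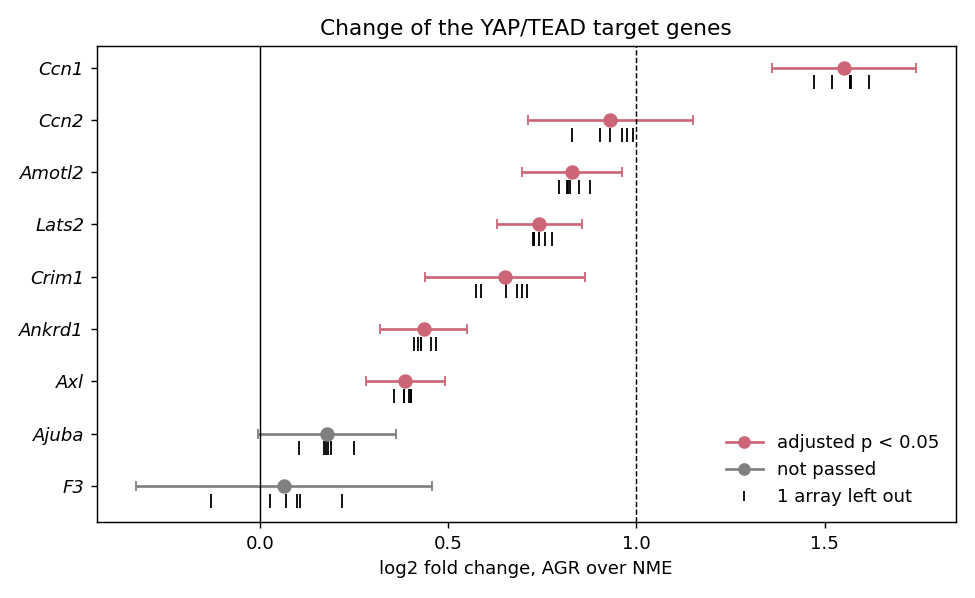
Log2 FC of AGR over NME cells (x axis) of the 9 target genes with 95% confidence intervals (n = 3 arrays for each line), red where the adjusted p was under 0.05 and gray where it was not, and with the values after leaving out each array in turn as black ticks. The dashed line marks a FC of 2, which the interval of Ccn1 cleared, that of Ccn2 crossed and those of the other genes did not reach.

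The AGR arrays did not contribute evenly. AGR replicate 1 was the lowest AGR array for 7 of the 9 genes, and AGR replicate 2 was the highest for 5. The deviations from the line's mean were small in the median, -0.04 for AGR replicate 1 and 0.02 for AGR replicate 2, and the extreme values, -0.31 and 0.39, were both those of F3. Ccn1, Ccn2, Amotl2, Lats2, Crim1, Axl and Ankrd1 passed the test with each array left out in turn.

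The genes lie on 7 chromosomes, with Ccn1 and F3 on chromosome 3 and Ajuba and Lats2 on chromosome 14. The 5 nearest measured genes on either side of each were read for comparison, a choice made after the values were seen. Of these 90 neighbours 15 were higher and 14 lower in AGR cells, while 12.6% of all genes were higher and 11.6% lower. A difference between these shares was not tested. For 8 of the 9 genes the neighbours had a median log2 FC between -0.14 and 0.06. Crim1 differed, as 5 of its 10 neighbours were higher and 0 lower, with a median of 0.25 and a highest value of 1.90. Around Ccn2, on chromosome 10, 0 neighbours were higher and 4 lower, with a median of -0.05. Arhgap29, which has itself been named as a YAP target, is one of the neighbours of F3. It was 2.14-fold higher in AGR cells (adjusted p = 0.0020) but lay under the array median in both lines, while F3 did not pass.

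The coactivators and their DNA-binding partners were read from the same arrays. Of 10 genes, 5 were higher and 1 was lower, or 50% and 10%, against 12.6% and 11.6% of all genes. Yap1 stood at 10.90, 10.95 and 10.94 in NME cells and at 11.16, 11.37 and 11.18 in AGR cells, a log2 FC of 0.30 (SE 0.06, adjusted p = 0.014), and did not pass without NME replicate 1 or NME replicate 3 (adjusted p up to 0.063), nor with the methods' test after adjustment. Wwtr1 had a log2 FC of -0.06 (adjusted p = 0.487). Of the TEAD genes, Tead2 and Tead1 rose with log2 FCs of 1.08 and 0.47 and Tead4 fell by 0.19 on the log2 scale, a call lost without NME replicate 3, AGR replicate 1 or AGR replicate 3. Vgll3, a TEAD cofactor, had the largest increase of all genes, 4.59, and Vgll4, a TEAD cofactor that competes with YAP, rose by 0.33, which did not pass without AGR replicate 3 or with the methods' test after adjustment. In NME cells Tead2 and Vgll3 were under the array median.

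Of 28 measured genes for Hippo kinases and their regulators 7 were higher, 4 were lower and 17 did not pass, with a median log2 FC of 0.19. These were 25% and 14.3%, against 12.6% and 11.6% of all genes. Without AGR replicate 2, or with the replicate number as a block, 11 were higher. Those that rose most were Amotl1, a paralog of Amotl2, with a log2 FC of 1.34, Wtip, a LIM protein related to Ajuba, with 0.88, the kinase gene Map4k4 with 0.59 and Wwc2, a relative of the scaffold KIBRA, with 0.54. Those that fell were Crb3 with -0.68, Amot with -0.58, Patj with -0.33 and Mob1b with -0.23. Crb3 and Patj encode parts of the Crumbs polarity complex and Mob1b a coactivator of LATS kinases. Of the angiomotins Amotl1 and Amotl2 were higher and Amot was lower, from 9.25 to 8.67, and Amot did not pass with the methods' test after adjustment (adjusted p = 0.052). For Lats1 the log2 FC was -0.15 and did not pass (adjusted p = 0.149), beside the increase of Lats2. Mob1b did not pass with each array centred on its median, nor without NME replicate 1, NME replicate 3, AGR replicate 1 or AGR replicate 3 (adjusted p up to 0.063).

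Further genes that have been named as YAP and TAZ targets were counted in the same way, first those of a published target score. Of these 14 genes 8 were higher, 1 was lower and 5 did not pass, with a median log2 FC of 0.28. Ccdc80 and Rbms3, which were among those higher, lay under the array median in both lines. With genes below that median left out, 6 were higher. Tgfb2, which encodes a TGF-β ligand, rose by 1.49 on the log2 scale and the transcription factor gene Foxf2 by 0.79. Asap1, which encodes an ARF GTPase-activating protein, rose by 0.54. The phosphatase gene Ptpn14, also counted among the Hippo regulators, rose by 0.53. Fjx1, which encodes a Golgi kinase of the Fat and Dachsous system, fell by 0.48. A second list held 17 other measured genes that have been named as YAP and TAZ targets and were taken as less specific. Whether the 9 genes or the score genes respond to other pathways was not tested. On the second list 11 were higher, 2 were lower and 4 did not pass, with a median of 0.65. With genes below the array median left out, 8 were higher. The largest increases were those of the matrix protein gene Thbs1 (log2 FC 3.40), the activin subunit gene Inhba (2.38), the caveolar gene Cavin2 (2.10) and the endothelin gene Edn1 (1.69). The increases of Tgfb2, Thbs1 and Inhba were known from earlier results when the lists were drawn up. Rnd3 had a log2 FC of -1.31 and Marcks one of -0.51. Called higher were 57.1% of the first list and 64.7% of the second, against 77.8% of the 9 genes and 12.6% of all genes. Called lower were 7.1% and 11.8%, against 11.6% of all genes. Whether the shares differ was not tested. In promoter windows the motif was present in 1 of 8 genes of the first list, 2 of 10 of the second, 7 of 24 Hippo regulators and 6 of 8 of the coactivator and TEAD list. It was also in 2 of 15 of the paralogs and partners described next. These shares are 12.5%, 20%, 29.2%, 75% and 13.3%, against 15.1% of all genes.

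**Figure D4:**
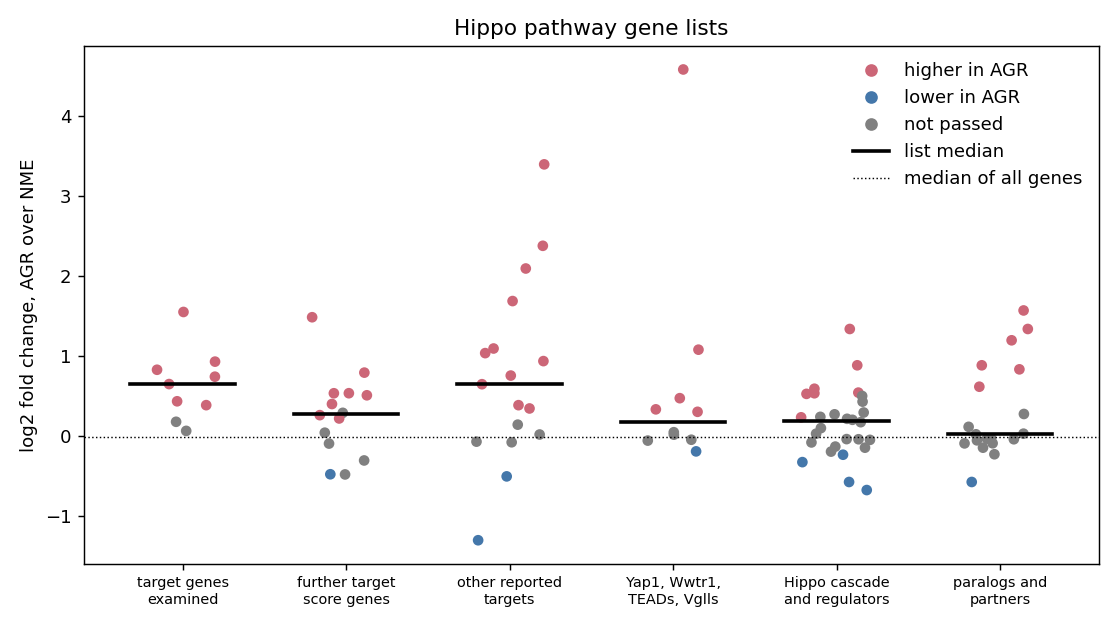
Log2 FC of AGR over NME cells (y axis) of each measured gene of 6 lists (points, with a sideways shift for legibility), red where higher and blue where lower at an adjusted p under 0.05 and gray where not passed. Black lines are list medians, from 0.65 for the 9 target genes to 0.02 for their paralogs and partners, the dotted line is the median of all genes, and the highest point is Vgll3 at 4.59.

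Paralogs and direct partners were read to place the target genes among their relatives. Of 19 genes 6 were higher, 1 was lower and 12 did not pass, and the median log2 FC was 0.02. The shares were 31.6% higher and 5.3% lower, against 12.6% and 11.6% of all genes. Amotl1, Wtip, Amot, Limd1 and Lats1 were also among the Hippo regulators, so both counts include them. In the CCN family Ccn4 rose from 9.07 to 10.27 and Ccn5 from 8.41 to 9.03, with log2 FCs of 1.20 and 0.62. Ccn3 and Ccn6 were under the array median in both lines, with log2 FCs of -0.03 and -0.09. Among the partners of Axl, Pros1, which encodes the TAM receptor ligand protein S, rose from 8.18 to 9.75, a log2 FC of 1.57. The other TAM ligand gene Gas6 was under the array median in both lines, with a log2 FC of 0.03, and the receptor genes Tyro3 and Mertk had log2 FCs of 0.28 (adjusted p = 0.056) and 0.11 that did not pass. F2r, the thrombin receptor gene, rose by 0.83, while F3 did not pass. The coagulation genes Tfpi, Tfpi2 and F7 had log2 FCs of -0.23 (adjusted p = 0.124), -0.09 and -0.05 that did not pass. Nor did the Ankrd1 paralogs Ankrd2 and Ankrd23, with log2 FCs of 0.02 and -0.03. Ccn3, Ccn5, Ccn6, Gas6, Tyro3, Mertk, F2r, F7, Tfpi, Tfpi2, Ankrd2, Ankrd23, Limd1, Ccdc80 and Rbms3 and the neighbour Arhgap29 were named after their values were seen.

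Axl, F3 and the CCN genes are also expressed in stroma, so marker genes of cell types were read beside them. Krt8, Krt18 and Cdh1, which mark epithelium, were bright in both lines, with mean log2 intensities between 12.93 and 14.23. The other markers of this list, Epcam, Cldn7, Esrp1, Krt5 and Krt14, lay below 7.61 in both. Of the 8 epithelial markers 1, Cdh1, was lower in AGR cells and 0 were higher. For Krt14 the log2 FC was -0.25 and did not pass (adjusted p = 0.058), with an unadjusted p of 0.015, and 0 markers were higher at an unadjusted p under 0.05. The summed intensity of the epithelial markers was 44238 to 44415 in NME cells and 37980 to 39011 in AGR cells. Krt8, Krt18 and Cdh1 make up most of this linear sum. Their log2 FCs were -0.10, -0.05 and -0.60, and only that of Cdh1 passed. Of 7 fibroblast markers 1, Pdgfra, was higher (log2 FC 0.39), and their summed intensity was 1237 to 1350 in NME cells and 1296 to 1347 in AGR cells, which overlap. Dcn, Lum, Postn and Pdgfrb were under the array median in both lines, and Pdgfra was under it in NME cells. Of 6 macrophage markers Cd68 and Csf1r were higher and Cd14 was lower, and 5 of the 6 had a log2 FC above 0. Their summed intensity was 3851 to 4209 in NME cells and 2868 to 3435 in AGR cells. Cd14 makes up most of this linear sum, with mean log2 intensities of 11.68 in NME and 11.08 in AGR cells. Ptprc, Adgre1 and Lyz2 were under the array median in both lines, and Csf1r was under it in NME cells. Of 6 endothelial markers 0 passed the test from limma in either direction, and 0 had an unadjusted p under 0.05. The part of the lower Cdh1 and of the macrophage markers in the changes of the target genes was not tested.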

How the data were processed

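The authors deposited linear array intensities that had already been processed. For this step the submitters' processing notes give MAS5 without settings, and as this array type has no mismatch probes the normalization is unknown. Column medians ran from 190.4 to 200.8, and no further scaling was applied. After log2, each gene was represented by its brightest probe set with a single symbol in the platform annotation. AGR and NME arrays were compared with lmFit and eBayes of limma 3.58.1 in R 4.3.3, and p-values were adjusted after Benjamini and Hochberg across the 19938 genes. The fit was tested on simulated data. Arrays give no read depth, and their number limits the precision.

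The target genes, gene lists, tests and alternatives were chosen with earlier results of these data known. The genes named were the 9 targets, Yap1, Wwtr1, Lats1 and Vgll3, up to 4 genes of each list that passed with the largest change, up to 2 that moved the other way, and all where 5 or fewer passed in a direction. Alternatives were quantile normalization, median centring, filters on dim genes, an offset of 16, the mean of probe sets, trend and robust eBayes, the test of the methods (two-sided, equal variances), the replicate number as a block and leaving out each array.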

Additional observations from a re-analysis of the deposited data

How the results depend on the processing

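Under each of the 16 alternatives 7 or 8 of the 9 target genes were higher and 0 were lower, the added gene being Ajuba without AGR replicate 1. Log2 FCs ranged from 1.47 to 1.62 for Ccn1, 0.83 to 0.99 for Ccn2, 0.79 to 0.88 for Amotl2, 0.72 to 0.77 for Lats2, 0.57 to 0.71 for Crim1, 0.41 to 0.48 for Ankrd1 and 0.36 to 0.42 for Axl. F3 did not pass under any of them. With the methods' test and adjustment, 3 of the coactivator and TEAD genes were higher instead of 5 and 0 of the paralogs and partners were lower instead of 1. Leaving out single arrays gave 0 to 1 lower coactivator and TEAD genes, 6 to 11 higher Hippo regulators, 1 to 3 lower target score genes and 1 to 2 lower paralogs and partners, with the highest of the last 3 numbers without AGR replicate 2. The cause was not tested. The deviations of same-numbered arrays had correlations of -0.13, 0.33 and 0.26, and those of differently numbered arrays ran from -0.47 to 0.36. With 3 arrays of each line these values cannot show whether the replicate numbers pair the arrays. With the replicate block the same 7 target genes were higher, 11 Hippo regulators were higher instead of 7, and 2 target score genes and 2 paralogs and partners were lower instead of 1. The files hold no detection calls, so dim genes such as Ccn3 cannot be set apart from background.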
